A study of Mus musculus with 48 samples.

Results

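The data are gene counts from sorted mouse enteroendocrine cells (EECs), and the comparison is between the 2 ends of the small intestine: the ileum, taken as the bottom 15 cm, against the duodenum, taken as the top 5 cm. Libraries were chosen by their tissue label, which gave 32 of the 48 mouse libraries, 16 from each region; the other libraries came from the large intestine. They came from 17 mice, of which 15 gave a library from both regions. Mouse 17 gave only a duodenum and mouse 24 only an ileum, so the paired comparison rested on 30 libraries, each the sorted cells of 1 mouse and 1 region.

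All mice were lean Neurod1-cre / EYFP animals on a C57BL6 background, in which cells that express or have expressed the transcription factor NeuroD1 carry a yellow fluorescent protein, and the sorted cells were positive for that protein and negative for the leukocyte antigen CD45. A lineage tag of this kind also stays on in any descendants of a NeuroD1-positive cell. The mice were male, and operations were made at about 20 weeks of age. Cells were taken 6 weeks later, after an overnight fast and about 15 min after a glucose gavage of 3 g/kg. The labels give 3 groups: VSG mice had most of the stomach removed (vertical sleeve gastrectomy), S_al mice were sham-operated and fed ad libitum, and S_wm mice were sham-operated and fed to match the weight of the VSG mice. Every group had liquid diet around surgery, then chow, and a course of antibiotic after the operation. VSG mice also received vitamin B12 injections. The paired mice numbered 4 S_al, 5 S_wm and 6 VSG, and each was compared with itself.

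EECs are scattered hormone-secreting cells of the gut epithelium that sense the contents of the lumen and release peptides or serotonin. Their hormones follow the long axis of the gut: GIP, CCK and secretin are classically products of the proximal small intestine, and GLP-1, PYY and neurotensin of the distal small intestine and colon. The epithelium around them is zoned as well, with iron, calcium and most fat absorbed proximally, bile acids and vitamin B12 recovered in the terminal ileum, and transcription factors such as Gata4 and Pdx1 proximally and Hox genes distally marking position.

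Total counts ran from 4823339 to 17182463 a library (median 7904597 in the duodenum and 6559605 in the ileum), with 17420 to 21265 genes detected. Levels are given as CPM (counts scaled to a common library total, after TMM normalisation). The 12 enteroendocrine markers summed to 12403 to 75475 CPM in the duodenum and 35270 to 86327 CPM in the ileum, so the labelled cell type was present in every library, although the sum was higher in the ileum in only 5 of 15 mice. Of the enteroendocrine markers 8 of 12 were lower in the ileum, against 16.8% of all genes tested, and none was higher. The 10 Paneth markers, genes of the antimicrobial secretory cell of the crypt base, summed to 123 to 3861 CPM (median 296) in the duodenum and 1186 to 12754 CPM (median 2548) in the ileum, higher in the ileum in 14 of 15 mice. The 8 markers of crypt stem and cycling cells summed to 483 to 2024 CPM and 1028 to 3924 CPM and were higher in the ileum in all 15 mice. The 12 enterocyte markers summed to 6405 to 54030 CPM (median 8140) in the duodenum and 5358 to 18694 CPM (median 12332) in the ileum. Those of leukocytes stayed at 182.8 CPM or lower in every library, pancreatic acinar markers at 1.33 CPM or lower, and stromal markers at 62.8 CPM or lower. Acinar markers alone had members at 0 in every library of a region (6 of 8 in one region and 4 of 8 in the other).

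**Figure D1:**
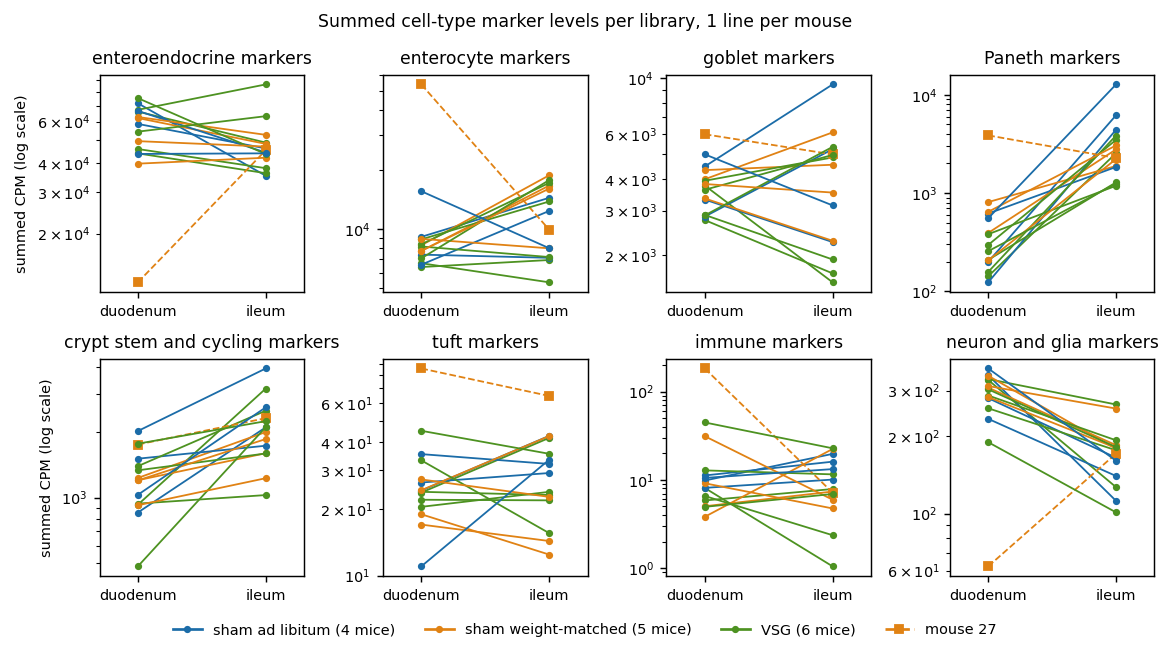
Summed CPM of 8 marker lists in the 15 duodenum and 15 ileum libraries of the paired mice, on a log axis, with a line for each mouse coloured by surgery group. Paneth and crypt markers sit higher in the ileum in 14 and 15 of 15 mice, and the duodenum library of mouse 27 stands far above the others in enterocyte markers, at 54030 CPM.

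The duodenum library of mouse 27 stood apart: its median correlation of log CPM with the other duodenum libraries was 0.898, where every other library reached at least 0.95 within its region, its enterocyte markers summed to 54030 CPM against 15521 CPM or less elsewhere in the duodenum, and its enteroendocrine markers to 12403 CPM against 39697 CPM or more. Mouse 12 was the other doubt, because the codes in its sample descriptions cross the ileum and colon labels; its ileum-labelled library had Insl5 at 1.63 CPM, inside the range of the other ileum libraries and below the other colon libraries, and the tissue label was kept. The second of the 2 index sequences that tag a library partly followed the region: D501 marked 4 duodenum and 7 ileum libraries, D502 marked 12 duodenum libraries only, and D503 and D504 marked 8 and 1 ileum libraries only. What the index stands for in the laboratory is not given in the sources used here, and outside D501 it cannot be told apart from the region.

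Of 14635 genes tested, 4872 (33.3%) differed between the regions at an adjusted p under 0.05, 2418 (16.5%) higher in the ileum and 2454 (16.8%) higher in the duodenum, each mouse being its own control. The median log2 fold change over all genes was -0.0042. A log2 fold change of at least 1 in size was met by 1485 genes (10.1%), 732 higher in the ileum and 753 in the duodenum. In 238 genes (1.63%) the 15 libraries of one region lay wholly above the 15 of the other, 90 (0.615%) with the ileum above and 148 (1.01%) with the duodenum above. Leaving out mouse 27 raised the count of differing genes to 6092, of which 4760 were among the 4872, and leaving out mouse 12 gave 4213. Within the index D501 alone, without the duodenum library of mouse 27, 10 libraries were compared without pairing and with surgery group as a term. This called 526 of 13534 genes, 196 higher in the ileum and 330 in the duodenum. All 526 had the same sign as in the paired comparison. Apart from the ileum library of mouse 24, these libraries were also in the paired comparison, so that agreement is not independent. The 3 duodenum libraries left in that setting were all S_al. Its region effect therefore rested on them and on the S_al ileum libraries of mice 32 and 24. The S_wm and VSG libraries there were all ileal and entered only the scaling, the filter and the estimate of spread. With the index as a further term 931 genes were called, 371 higher in the ileum and 560 in the duodenum, and 78.4% of the 4872 kept their sign. That fit kept the duodenum library of mouse 27, 1 of the 4 duodenum libraries of index D501, and was not run without it. Only mice 12, 13, 27 and 32 had a duodenum library outside D502, and the ileum library of mouse 12 alone carried D504. That fit therefore told region from index only through mice 13, 27 and 32, none of them VSG. The calls within these settings are given for each gene list, to be read against the fall over all genes from 4872 to 526 and 931. In bulk samples such as these, fewer cells of a type and less RNA per cell cannot be told apart.

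The 11 gut peptide genes divided between the regions. Of these, 5 were higher in the ileum, 5 were higher in the duodenum and Sct did not pass the test, a share of 10 in 11 read against 33.3% of all genes, and in 5 of the 11 the libraries of the regions did not overlap, against 1.63% of all genes. Their median log2 fold change was -0.26.

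Gip encodes glucose-dependent insulinotropic polypeptide, the incretin hormone of K cells, and was the most abundant peptide transcript in the duodenum. Its level ran from 8834 to 29136 CPM (median 18418) in the duodenum and 745 to 7948 CPM (median 4671) in the ileum. The lowest duodenum library lay above the highest ileum library, and every mouse was lower in the ileum (log2 fold change -2.20 ± 0.18, adjusted p = 1.44e-08). Cck, which encodes cholecystokinin, the signal for gallbladder contraction and pancreatic enzyme release, ran from 1105 to 5681 CPM (median 3773) in the duodenum and 171 to 682 CPM (median 414) in the ileum. Here too the regions did not overlap (log2 fold change -3.30 ± 0.20, adjusted p = 1.64e-09). Ghrl, the gene of the hunger hormone ghrelin, ran from 342 to 2372 CPM (median 1679.6) in the duodenum and 14.3 to 228 CPM (median 73.6) in the ileum, without overlap and with the largest drop of these 3 (log2 fold change -4.53 ± 0.36, adjusted p = 5.61e-07).

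Sst encodes somatostatin, the inhibitory peptide of D cells. It ran from 970.3 to 7588 CPM (median 3436) in the duodenum and 572 to 2811 CPM (median 1437) in the ileum, so the ranges overlapped, but it was lower in the ileum in 14 of 15 mice (log2 fold change -1.32 ± 0.19, adjusted p = 4.00e-05). Gast, the gastrin gene, ran from 0.146 to 107 CPM (median 1.31) in the duodenum and 0 to 0.655 CPM (median 0) in the ileum; it was high in a few duodenum libraries (107 CPM in mouse 13 and 99.2 CPM in mouse 18) and near 0 in the others, and in the ileum its reads were confined to 1 library with 4 counts (log2 fold change -8.89 ± 0.76, adjusted p = 3.46e-05). Sct, the gene of secretin, which prompts bicarbonate release, ran from 375 to 2449 CPM (median 1535) in the duodenum and 566 to 2923 CPM (median 1148) in the ileum. Its ranges overlapped, 5 of 15 mice were higher in the ileum and the test was not passed (log2 fold change -0.26 ± 0.13, adjusted p = 0.137); without mouse 27, whose duodenum library was the lowest at 375 CPM, it passed as lower in the ileum (-0.37, adjusted p = 0.00382).

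Nts encodes neurotensin, a peptide of the distal small intestine that slows motility and acts in fat absorption. It ran from 281 to 1263 CPM (median 461) in the duodenum and 3090 to 13775 CPM (median 4969) in the ileum, with no overlap and a rise in all 15 mice (log2 fold change 3.48 ± 0.14, adjusted p = 6.03e-13). Pyy, the gene of peptide YY, which slows transit and reduces appetite, ran from 35.8 to 264 CPM (median 112) in the duodenum and 326 to 1964 CPM (median 748) in the ileum. The highest duodenum library lay below the lowest ileum library (log2 fold change 2.69 ± 0.29, adjusted p = 9.81e-06).

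Gcg, from which L cells make GLP-1, GLP-2 and oxyntomodulin, ran from 191 to 1319 CPM (median 527) in the duodenum and 569 to 3769 CPM (median 1078) in the ileum. The ranges overlapped widely, 12 of 15 mice were higher in the ileum, and the change was the smallest that passed among the 5 ileal peptides (log2 fold change 0.95 ± 0.29, adjusted p = 0.0222); it missed the threshold without mouse 32 (adjusted p = 0.0516). Tac1, the precursor of substance P, made with serotonin by part of the enterochromaffin cells, ran from 44.7 to 351 CPM (median 217) in the duodenum and 253 to 639 CPM (median 352) in the ileum and was higher in the ileum in 14 of 15 mice (log2 fold change 0.99 ± 0.24, adjusted p = 0.00585). Insl5, a relaxin-family peptide of colonic L cells, was at the limit of detection in the small intestine: it was 0 in most duodenum libraries, reached 0.371 CPM at most there, and ran from 0 to 5.47 CPM (median 1.45) in the ileum (log2 fold change 3.89 ± 0.58, adjusted p = 4.97e-05).

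**Figure D2:**
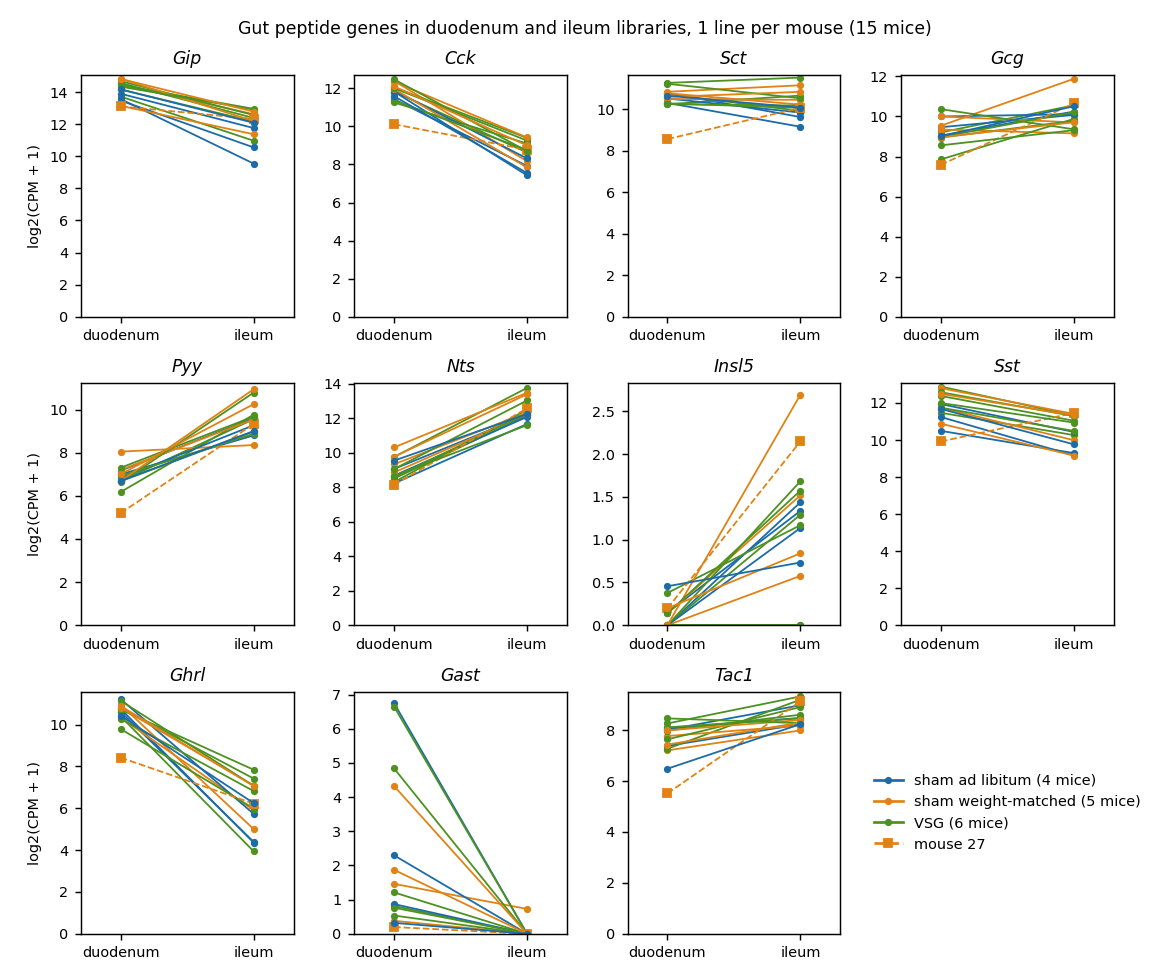
Level of the 11 gut peptide genes, as log2(CPM + 1), in the duodenum and ileum libraries of the 15 paired mice, with a line for each mouse coloured by surgery group and mouse 27 dashed. Gip, Cck and Ghrl fall and Nts and Pyy rise in every mouse without overlap, whereas the lines of Sct cross.

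The index settings called 3 higher in the ileum and 2 in the duodenum within index D501 (mouse 27's duodenum library left out), and 2 and 2 with the index as a term. Within D501, Nts (3.41, adjusted p = 0.00237), Pyy (2.12, 0.0361), Gcg (1.48, 0.00683), Cck (-3.09, 0.00198) and Ghrl (-4.23, 0.00205) passed and Gip did not (-1.30, 0.124). Taking the index as a term, Gip (-1.67, adjusted p = 0.0116), Cck (-2.67, 0.00562), Nts (3.82, 1.55e-06) and Tac1 (2.62, 0.0137) passed. Sst was not called in either setting (-0.35 and -0.49).

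To compare levels between genes, CPM was divided by exon length in kilobases and each gene was expressed as a share of the summed CPM per kb of the 11 peptide genes. The sum itself was lower in the ileum, at a median of 17787 CPM per kb (8392 to 32353) against 40254 (16371 to 62549). On this scale Gip took 66.8% ± 6.59 in the duodenum and 34.9% ± 11.7 in the ileum (mean ± SD, n = 15), and its share was lower in the ileum in all 15 mice. Nts took 1.099% ± 0.319 in the duodenum and 27.2% ± 6.21 in the ileum, so it moved from a trace to the share next below that of Gip. The share of Sct was 6.12% ± 1.93 in the duodenum and 11.2% ± 2.43 in the ileum, higher in the ileum in all 15 mice although its CPM was not. The shares of Sst were 12.9% ± 3.297 in the duodenum and 11.8% ± 3.23 in the ileum. The shares of Pyy were 0.507% ± 0.234 in the duodenum and 7.18% ± 2.98 in the ileum, those of Gcg 1.13% ± 0.664 in the duodenum and 4.85% ± 2.75 in the ileum, and those of Cck 7.32% ± 2.23 in the duodenum and 1.69% ± 0.466 in the ileum. These are shares of one sum, so that of one gene depends on the others.

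**Figure D3:**
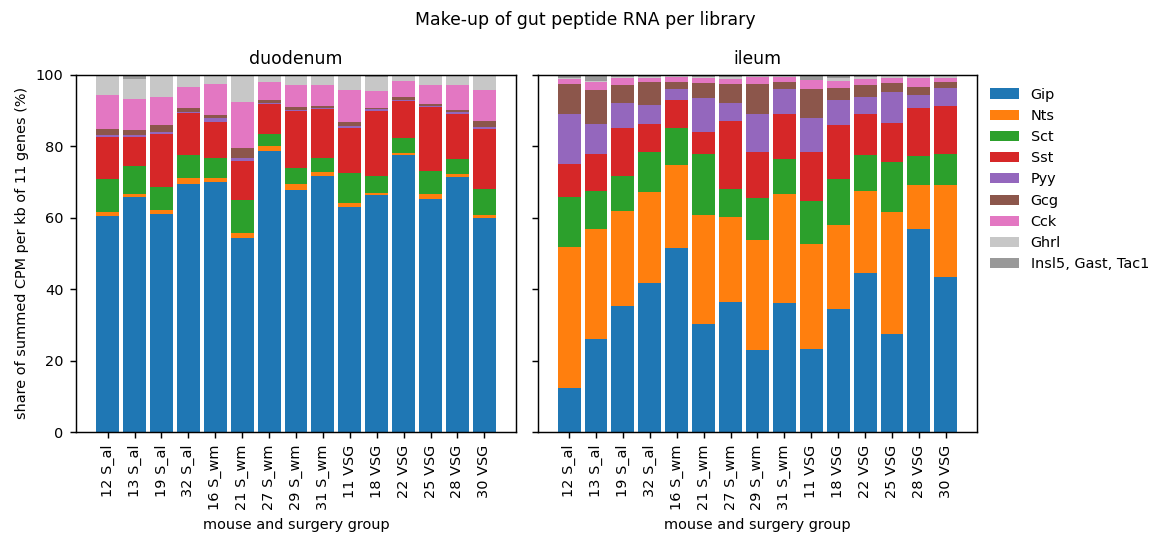
Each bar is 1 library, split by the share (%) of each gene in the summed CPM per kb of the 11 peptide genes, with mice in the same order in both panels. Gip takes 54.3% to 78.5% of a duodenum library and 12.4% to 56.9% of an ileum library, and the band of Nts is thin in the duodenum and broad in the ileum.

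The proximal sequence of 5 genes with large regional differences is shown because GATA factors and CDX factors, which bind the motifs searched, are among the regional transcription factors described next. Each sequence is the 250 bases before the gene start, 5′ to 3′ on the strand of the gene, from RefSeq on GRCm38.p6: Gip at chr11:96024295-96024544 on the plus strand, Cck at chr9:121495695-121495944 on the minus strand, Nts at chr10:102490419-102490668 on the minus strand, Fabp6 at chr11:43601563-43601812 on the minus strand, and Hoxb8 at chr11:96281655-96281904 on the plus strand. Capitals mark a GATA motif (AGATAA or TGATAA) or a CDX motif (TTTATGA or TTTATGG or TTTATTG), searched on both strands, so a capital run may read as the reverse complement of these letters.
Gip: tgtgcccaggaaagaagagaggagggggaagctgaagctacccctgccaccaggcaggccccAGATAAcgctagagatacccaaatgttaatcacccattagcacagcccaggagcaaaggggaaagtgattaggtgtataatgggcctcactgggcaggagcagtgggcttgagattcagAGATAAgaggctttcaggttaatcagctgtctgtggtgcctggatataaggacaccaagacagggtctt
Cck: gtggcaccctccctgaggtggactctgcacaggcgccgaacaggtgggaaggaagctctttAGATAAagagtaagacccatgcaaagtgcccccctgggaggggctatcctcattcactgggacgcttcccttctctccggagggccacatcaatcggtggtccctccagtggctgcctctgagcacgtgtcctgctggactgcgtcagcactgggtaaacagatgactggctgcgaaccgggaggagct
Nts: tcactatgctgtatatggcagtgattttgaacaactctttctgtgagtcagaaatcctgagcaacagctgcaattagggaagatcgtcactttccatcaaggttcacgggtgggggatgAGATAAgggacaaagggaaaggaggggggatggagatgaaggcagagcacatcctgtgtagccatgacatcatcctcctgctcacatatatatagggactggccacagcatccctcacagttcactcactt
Fabp6: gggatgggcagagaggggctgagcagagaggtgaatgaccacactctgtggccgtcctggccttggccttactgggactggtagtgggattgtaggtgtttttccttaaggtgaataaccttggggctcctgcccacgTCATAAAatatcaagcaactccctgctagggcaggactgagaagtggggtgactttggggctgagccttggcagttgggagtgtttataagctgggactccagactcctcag
Hoxb8: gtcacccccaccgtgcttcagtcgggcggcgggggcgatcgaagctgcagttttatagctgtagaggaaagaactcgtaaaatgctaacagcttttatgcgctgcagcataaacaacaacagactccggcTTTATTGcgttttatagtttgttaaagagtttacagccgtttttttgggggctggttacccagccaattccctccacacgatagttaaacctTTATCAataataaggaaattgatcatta
Gip held 2 GATA matches, starting at -188 and -69 from the gene start, Cck 1 at -189, and Nts, the gene that was higher in the ileum, 1 at -131. Fabp6 held 1 CDX match at -112, and Hoxb8 held 1 of each, at -28 (GATA) and -120 (CDX). A GATA match was present in 9.99% of the 13619 promoters of tested genes. It was present in 17.6% of 637 promoters of genes at least 1 log2 unit higher in the ileum. Of 751 promoters of genes at least 1 log2 unit higher in the duodenum, 14.2% held one. Both shares were above that of the tested genes, and the duodenal share was not above the ileal one. These shares were not tested, and some genes have more than 1 promoter. The CDX motifs stood in 5.41%, 7.06% and 6.26% of the same promoters, and over all 32851 promoters the shares were 16.6% for GATA and 9.49% for CDX. A match is a run of letters and not a measured binding site.

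Of 30 other secreted peptides, 16 were abundant enough to be tested. Of these, 5 were higher in the ileum and 6 in the duodenum (median log2 fold change 0.05), against 16.5% and 16.8% of all genes. Penk, the proenkephalin gene of opioid peptides, ran from 0.139 to 8.64 CPM (median 2.12) in the duodenum and had no read in any of the 15 ileum libraries, against 341 in the duodenum, which makes it at least 86.2-fold lower there (floor of 3 counts over the region). Igfbp2, which encodes an insulin-like growth factor binding protein, ran from 8.38 to 41.7 CPM (median 16.8) in the duodenum and 0.142 to 4.19 CPM (median 2.005) in the ileum, without overlap (log2 -3.29 ± 0.29, adjusted p = 1.48e-07). Ttr, the transthyretin gene, fell likewise from a mean of 85.03 CPM to 17.1 CPM (log2 -2.32 ± 0.15, adjusted p = 3.85e-09). On the ileal side Ppy, the gene of pancreatic polypeptide, ran from 0 to 0.607 CPM (median 0) in the duodenum and 0 to 13.5 CPM (median 3.46) in the ileum (log2 6.11 ± 0.62, adjusted p = 3.93e-07). Guca2a, which encodes guanylin, the ligand of an epithelial guanylate cyclase, had 0.7 to 40.7 CPM (median 4.97) in the duodenum and 25.4 to 225 CPM (median 89.3) in the ileum (log2 3.80 ± 0.41, adjusted p = 9.23e-06). Guca2a was higher in the ileum in 15 and Ppy in 14 of 15 mice, but the ranges overlapped. The index settings left 1 higher in the ileum and 1 in the duodenum within index D501 (mouse 27's duodenum library left out), and 0 and 1 with the index as a term.

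Genes of serotonin synthesis and storage were higher in the duodenum in 5 of 13 cases, against 16.8% of all genes, and Tac1 alone was higher in the ileum (median -0.26). Fewer of the 13 were called in the index settings, with 0 higher in the ileum and 2 in the duodenum within index D501 (mouse 27's duodenum library left out), and 1 and 0 with the index as a term. Tph1, the rate-limiting enzyme of gut serotonin synthesis, ran from 507 to 3362 CPM (median 2406) in the duodenum and 619.8 to 2131 CPM (median 1110) in the ileum. Those ranges overlapped, and Tph1 was lower in the ileum in 14 of 15 mice (log2 -1.15 ± 0.19, adjusted p = 1.15e-04). Slc18a2, the vesicular monoamine transporter VMAT2, ran from 17.1 to 60.2 CPM (median 31.4) in the duodenum and 4.74 to 29.1 CPM (median 13.8) in the ileum, lower in the ileum in 14 mice (log2 -1.54 ± 0.23, adjusted p = 9.22e-05). The companion transporter gene Slc18a1 (log2 -0.26 ± 0.15, adjusted p = 0.209) and the serotonergic transcription factor Fev (log2 -0.12 ± 0.16, adjusted p = 0.595) did not pass. Without mouse 27 the list stood at 3 higher in the ileum and 8 in the duodenum.

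Granins, which condense into the cores of secretory granules, and the enzymes that cut and finish prohormones formed a list of 13, with 6 higher in the duodenum, 2 in the ileum and 5 that did not pass (median -0.27). A share of 61.5% thus passed, against 33.3% of all genes. The counts were 0 higher in the ileum and 3 in the duodenum within index D501 (mouse 27's duodenum library left out), and 1 and 1 with the index as a term. Pcsk2, the prohormone convertase PC2, made the list's largest difference, with 9.64 to 41.5 CPM (median 26.4) in the duodenum and 0 to 1.27 CPM (median 0) in the ileum (log2 -6.92 ± 0.38, adjusted p = 6.26e-10). It was detected in every duodenum library and was near 0 in the ileum, with no overlap. Pcsk1, which encodes the other convertase, PC1/3, the enzyme that cuts GLP-1 from proglucagon, did not pass (a mean of 930.0 CPM in the duodenum and 761 CPM in the ileum, log2 -0.27 ± 0.15, adjusted p = 0.185). Scg2, encoding secretogranin II, ran from 324 to 1444 CPM (median 1124) in the duodenum and 267 to 690.3 CPM (median 373) in the ileum and was lower in the ileum in 14 of 15 mice (log2 -1.42 ± 0.13, adjusted p = 7.84e-08). Chga (log2 0.13 ± 0.17, adjusted p = 0.599) and Chgb (log2 -0.25 ± 0.17, adjusted p = 0.296), the chromogranin genes most used as EEC markers, did not pass. Pcsk1n, encoding the convertase inhibitor proSAAS (log2 0.37 ± 0.14, adjusted p = 0.0459), and Cpd, a carboxypeptidase gene (log2 0.25 ± 0.07, adjusted p = 0.00914), were slightly higher in the ileum, but Pcsk1n missed the threshold when any of 10 of the 15 mice was left out. Without mouse 27 the duodenal count was 8, with Chgb among them (-0.38, adjusted p = 0.00774).

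Transcription factors of the EEC lineage were lower in the ileum or did not pass: 11 of 28 tested were higher in the duodenum, read against 16.8% of all genes, and none in the ileum (median -0.26). Neurog3, the factor that commits progenitors to this lineage, ran from 0.7 to 7.65 CPM (median 3.58) in the duodenum and 0.139 to 3.46 CPM (median 0.982) in the ileum (log2 -1.54 ± 0.38, adjusted p = 0.0036). Hhex, a factor of somatostatin cells, ran from 0.292 to 4.59 CPM (median 2.31) in the duodenum and 0 to 1.99 CPM (median 1.002) in the ileum (log2 -1.37 ± 0.50, adjusted p = 0.0389). Both sets of ranges overlapped, and Hhex missed the threshold when any of 9 mice was left out. Neurod1, the gene behind the sort itself, ran from 143 to 954 CPM (median 668) in the duodenum and 227 to 709.7 CPM (median 392) in the ileum and was lower in the ileum in 13 of 15 mice (log2 -0.65 ± 0.15, adjusted p = 0.00373). Isl1 and Rfx6, which act in the choice and upkeep of endocrine subtypes, fell by 0.98 and 0.90 on the log2 scale, while the pan-endocrine factor Insm1 did not pass (log2 0.06 ± 0.15, adjusted p = 0.816). The duodenal count was 18 without mouse 27. There were 0 higher in the ileum and 4 in the duodenum within index D501 (mouse 27's duodenum library left out), and 0 and 1 with the index as a term, in which Neurod1 was at 0.0015 (adjusted p = 1). The summed enteroendocrine markers were at a median of 58617 CPM in the duodenum and 45261 CPM in the ileum. They are no separate observation: Neurod1, Insm1, Nkx2-2, Pax6, Rfx6 and Isl1 are in this list and the other markers in the granin list. Most of the sum is Chga and Chgb, which did not pass. The part of EEC content in these differences was not tested.

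Among transcription factors that mark position along the gut, 13 of 23 tested were higher in the ileum and 5 in the duodenum (median 0.26), against 16.5% and 16.8% of all genes. In 8 of the 23 the regions did not overlap, 4 each way, against 1.63% of all genes. The ileal majority of calls was not kept in the index settings, with 4 higher in the ileum and 4 in the duodenum within index D501 (mouse 27's duodenum library left out), and 3 and 6 with the index as a term. Over all genes these settings also called fewer in the ileum than in the duodenum, 196 against 330 and 371 against 560. Pdx1, the homeobox factor of pancreas and duodenum, ran from 40.6 to 138 CPM (median 53.7) in the duodenum and 2.42 to 14.3 CPM (median 5.73) in the ileum (log2 -3.34 ± 0.11, adjusted p = 8.50e-14). Gata4, which sets the jejunal programme of the epithelium, was at a mean of 124 CPM in the duodenum and 52.8 CPM in the ileum (log2 -1.28 ± 0.11, adjusted p = 6.27e-08), whereas its relative Gata6 did not pass (log2 -0.07 ± 0.07, adjusted p = 0.516) and Gata5 was higher in the ileum (log2 0.77 ± 0.12, adjusted p = 5.11e-05). Onecut2 and Meis2 made the largest drops. Onecut2 ran from 198 to 343 CPM (median 262) in the duodenum and 3.38 to 24.4 CPM (median 10.5) in the ileum (log2 -4.68 ± 0.29, adjusted p = 4.42e-08). Meis2, a homeobox cofactor, ran from 4.48 to 18.8 CPM (median 10.4) in the duodenum and 0 to 0.805 CPM (median 0) in the ileum (log2 -5.67 ± 0.37, adjusted p = 6.14e-10). No ileum library reached the lowest duodenum library for either gene.

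On the ileal side, Osr2, a zinc finger gene, ran from 0.117 to 6.26 CPM (median 3.11) in the duodenum and 58.4 to 125 CPM (median 76.9) in the ileum (log2 5.02 ± 0.35, adjusted p = 1.48e-07). The regions did not overlap, and it was higher in the ileum in all 15 mice. The caudal homeobox genes rose less: Cdx1 was at a mean of 66.4 CPM in the duodenum and 124 CPM in the ileum (log2 0.92 ± 0.08, adjusted p = 1.70e-08) and Cdx2 at a mean of 119 CPM in the duodenum and 149 CPM in the ileum (log2 0.33 ± 0.06, adjusted p = 2.03e-04). In the fit with the index, Osr2 (4.67, adjusted p = 0.0212), Meis2 (-7.73, 5.64e-04) and Onecut2 (-4.66, 0.0138) were among those still called.

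Hox genes, which give cells their place along the body axis and lie in 4 clusters, were mostly too low to test: 13 of 39 were tested, 10 were higher in the ileum, 2 in the duodenum and 1, Hoxb2, did not pass (log2 -0.86 ± 0.35, adjusted p = 0.0615). The median log2 fold change of the 13 was 3.83, and 92.3% of them passed, against 33.3% of all genes. The filter admits a gene with enough counts in a single region. Hoxb5 to Hoxb9, Hoxc6 and Hoxa11 had duodenum means of 0.333 CPM or lower, and Hoxa9 an ileum mean of 0.0348 CPM. Genes that enter through one region tend to pass, so this share and this median are partly set by the filter. Hoxb8 ran from 0 to 1.49 CPM (median 0.124) in the duodenum and 5.06 to 53.4 CPM (median 25.5) in the ileum, a step from almost no reads to a clear signal in every ileum library (log2 7.14 ± 0.34, adjusted p = 5.57e-11). Hoxb9 ran from 0 to 1.33 CPM (median 0.139) in the duodenum and 4.699 to 71.2 CPM (median 24.9) in the ileum (log2 6.64 ± 0.34, adjusted p = 2.24e-10). Hoxb7 ran from 0 to 1.92 CPM (median 0.149) in the duodenum and 4.699 to 19.1 CPM (median 9.58) in the ileum (log2 5.52 ± 0.42, adjusted p = 1.71e-08). None of the 3 overlapped. Within the Hoxb cluster the log2 fold changes of Hoxb3 (1.90 ± 0.27) and Hoxb4 (1.49 ± 0.27) were the smallest of those that passed, Hoxb5 lay between (3.83 ± 0.46), and Hoxb6 (6.22 ± 0.38) joined Hoxb7 to Hoxb9 at the top.

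The Hoxa cluster did not follow. Hoxa9 ran from 0.378 to 5.56 CPM (median 2.02) in the duodenum with 230 counts over the 15 libraries, against 3 counts in the ileum, a ratio of 58.2 (exact 95% interval 19.7 to 284 for counting error). Hoxa7 ran from 0 to 3.34 CPM (median 1.77) in the duodenum and 0 to 0.659 CPM (median 0.0805) in the ileum (log2 -3.39 ± 0.55, adjusted p = 1.02e-04). Both were thus higher in the duodenum, at medians near 2 CPM, while Hoxa11 (log2 4.59 ± 0.72, adjusted p = 1.36e-04) and Hoxa3 (log2 1.71 ± 0.48, adjusted p = 0.00979) were higher in the ileum. Hoxa7 overlaps an antisense gene, and whether reads were counted by strand is not given in the sources used here. There were 6 higher in the ileum and 0 in the duodenum within index D501 (mouse 27's duodenum library left out), and 8 and 0 with the index as a term.

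**Figure D4:**
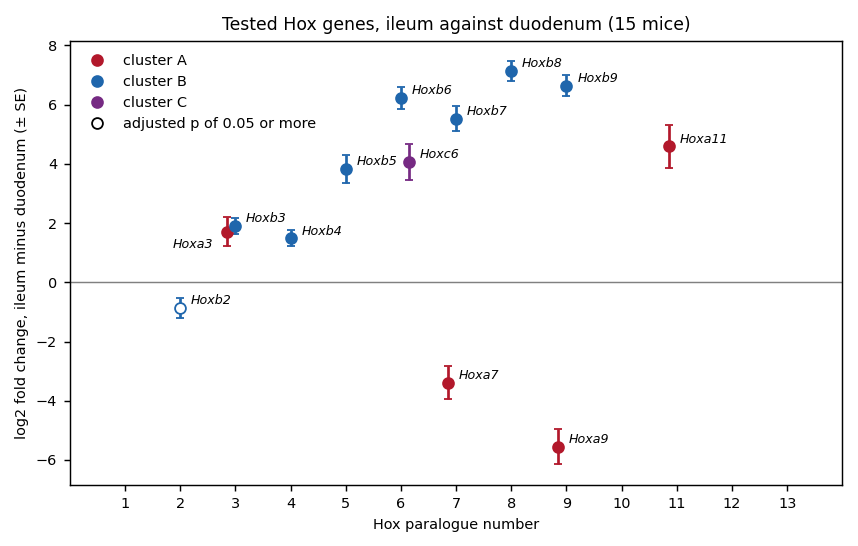
Log2 fold change (ileum minus duodenum) with SE of the 13 tested Hox genes by paralogue number, coloured by cluster, with an open point where the adjusted p was 0.05 or more. Hoxb3 to Hoxb9 and Hoxc6 lie above 0, and Hoxa7 and Hoxa9 lie below it at -3.39 and -5.56.

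Receptors for nutrients and bile acids numbered 20 tested of 25, with 8 higher in the ileum and 5 in the duodenum (median 0.15), against 16.5% and 16.8% of all genes. Gpbar1, the membrane receptor for bile acids also known as TGR5, ran from 0 to 2.72 CPM (median 0.324) in the duodenum and 1.27 to 15.9 CPM (median 4.41) in the ileum (log2 3.07 ± 0.46, adjusted p = 3.22e-05) and was higher in the ileum in every mouse, although the ranges overlapped. Adgrd1, an adhesion receptor gene, ran from 23.1 to 125 CPM (median 50.2) in the duodenum and 113 to 548 CPM (median 249) in the ileum (log2 2.24 ± 0.11, adjusted p = 2.82e-11), again higher in all 15 mice with a narrow overlap. Of the fatty acid receptors, Ffar1 passed by a small margin (log2 0.36 ± 0.13, adjusted p = 0.047), and Ffar2 (log2 -0.02 ± 0.12, adjusted p = 0.904), Ffar3 (log2 0.07 ± 0.19, adjusted p = 0.814) and Ffar4 (log2 0.16 ± 0.10, adjusted p = 0.26) did not. Gpr119, a receptor for lipid amides and monoacylglycerols, was higher in the ileum (log2 0.52 ± 0.17, adjusted p = 0.0226). Among those higher in the duodenum was Cnr1, the cannabinoid receptor CB1, with 45.7 to 172 CPM (median 89.8) in the duodenum and 6.398 to 65.9 CPM (median 32.4) in the ileum (log2 -1.70 ± 0.19, adjusted p = 8.25e-06). Hcar1, a lactate receptor, had 2.04 to 18.5 CPM (median 9.21) in the duodenum and 0.542 to 9.83 CPM (median 2.22) in the ileum (log2 -1.73 ± 0.29, adjusted p = 1.68e-04). Casr, the calcium-sensing receptor that also responds to amino acids, was lower in the ileum too (log2 -1.41 ± 0.26, adjusted p = 7.23e-04). Of the 20, the index settings called 0 higher in the ileum and 1 in the duodenum within index D501 (mouse 27's duodenum library left out), and 2 and 0 with the index as a term.

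Of 25 receptors for peptides and transmitters tested (of 38), 11 were higher in the ileum and 5 in the duodenum (median 0.46), against 16.5% and 16.8% of all genes. Those higher in the duodenum included Mc4r, the melanocortin receptor, which ran from 0.875 to 7.42 CPM (median 5.19) in the duodenum and 0 to 1.29 CPM (median 0) in the ileum (log2 -4.79 ± 0.60, adjusted p = 5.60e-06). Ntsr2, a neurotensin receptor gene, ran from 0 to 2.41 CPM (median 1.28) in the duodenum and 0 to 0.221 CPM (median 0) in the ileum (log2 -4.51 ± 0.57, adjusted p = 5.69e-06). Glp1r, the GLP-1 receptor, was another (a mean of 64.3 CPM in the duodenum and 11.4 CPM in the ileum, log2 -2.70 ± 0.29, adjusted p = 7.04e-06). Mc4r and Ntsr2 were at low levels in both regions. On the ileal side the serotonin receptor Htr4 ran from 0.118 to 2.39 CPM (median 1.02) in the duodenum and 1.45 to 5.44 CPM (median 2.95) in the ileum (log2 1.52 ± 0.33, adjusted p = 0.00149). The ghrelin receptor Ghsr had 0 to 1.11 CPM (median 0.247) in the duodenum and 0 to 2.21 CPM (median 0.716) in the ileum (log2 1.79 ± 0.60, adjusted p = 0.027). The call of Ghsr was lost without mouse 13, 16 or 32. The muscarinic receptor genes Chrm1 (log2 1.37 ± 0.20, adjusted p = 2.39e-05) and Chrm3 (log2 1.21 ± 0.18, adjusted p = 3.86e-05) were higher as well. Among somatostatin receptors Sstr2 was lower in the ileum (log2 -0.89 ± 0.21, adjusted p = 0.00274) while Sstr1 (log2 0.46 ± 0.12, adjusted p = 0.00773) and Sstr3 (log2 0.85 ± 0.23, adjusted p = 0.00894) were higher. Of the 25 receptors, those called with regard to the index were 1 higher in the ileum and 2 in the duodenum within index D501 (mouse 27's duodenum library left out), and 5 and 0 with the index as a term.

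Of 33 tested channels of sensing and excitability, 11 were higher in the duodenum, against 16.8% of all genes, and 5 in the ileum (median -0.23). With the index the duodenal calls were mostly or wholly lost: 0 higher in the ileum and 4 in the duodenum within index D501 (mouse 27's duodenum library left out), and 1 and 0 with the index as a term. Duodenal calls over all genes fell as well in these settings, from 2454 to 330 and 560. Trpa1, the irritant receptor of enterochromaffin cells, ran from 194 to 1178 CPM (median 634) in the duodenum and 53.5 to 213 CPM (median 113) in the ileum and was lower in the ileum in 14 of 15 mice (log2 -2.58 ± 0.26, adjusted p = 4.27e-06). Scn9a, the sodium channel Nav1.7, ran from 1.49 to 7.71 CPM (median 3.76) in the duodenum and 0 to 0.889 CPM (median 0.164) in the ileum without overlap (log2 -3.80 ± 0.46, adjusted p = 2.58e-06). In the other direction Grik3, a kainate receptor subunit, ran from 1.75 to 12.4 CPM (median 6.54) in the duodenum and 16.5 to 55.6 CPM (median 36.7) in the ileum without overlap (log2 2.43 ± 0.16, adjusted p = 1.43e-09). Scn2a, another sodium channel gene, ran from 0 to 1.103 CPM (median 0.149) in the duodenum and 0.247 to 3.22 CPM (median 0.983) in the ileum (log2 1.70 ± 0.55, adjusted p = 0.0214; adjusted p = 0.0532 without mouse 32), and the stretch-activated channel Piezo1 was at a mean of 4.65 CPM in the duodenum and 12.8 CPM in the ileum (log2 1.53 ± 0.19, adjusted p = 3.30e-06). Kcnj11 and Abcc8, the pore and the sulfonylurea-binding subunit of the ATP-sensitive potassium channel that links glucose metabolism to excitability, were both lower in the ileum (log2 -1.16 ± 0.17 and -0.84 ± 0.12). Kcnj11 ran from 10.1 to 39.5 CPM (median 28.8) in the duodenum and 5.97 to 23.5 CPM (median 11.9) in the ileum, lower in the ileum in 14 mice. In the list of sugar sensing and transport that holds them, 6 of 21 were higher in the duodenum and 2, Mgam and Hk1, in the ileum, and 13 did not pass (median -0.21), 8 in all or 38.1% against 33.3% of all genes. The index settings called 0 higher in the ileum and 1 in the duodenum within index D501 (mouse 27's duodenum library left out), and 0 and 2 with the index as a term. Slc5a1, the sodium-glucose cotransporter SGLT1, was among those that did not pass (log2 0.43 ± 0.31, adjusted p = 0.334).

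Genes of bile acid and vitamin B12 recovery were higher in the ileum in 8 of 12 cases, read against 16.5% of all genes, with 1 higher in the duodenum (median 1.12). Fabp6, the ileal bile acid-binding protein, ran from 0.298 to 17.7 CPM (median 1.84) in the duodenum and 32.7 to 855 CPM (median 126) in the ileum (log2 6.20 ± 0.34, adjusted p = 1.26e-08). Slc10a2, the apical sodium-bile acid transporter ASBT, ran from 0.365 to 1.502 CPM (median 0.702) in the duodenum and 5.24 to 208 CPM (median 40.8) in the ileum (log2 5.46 ± 0.38, adjusted p = 7.84e-08). Neither overlapped between regions. Fgf15, the hormone by which the ileum restrains hepatic bile acid synthesis, ran from 0 to 1.31 CPM (median 0) in the duodenum and 0.694 to 20.98 CPM (median 6.69) in the ileum (log2 7.72 ± 0.46, adjusted p = 1.28e-07). Cubn, which takes part in the uptake of vitamin B12 bound to intrinsic factor, was at a mean of 22.9 CPM in the duodenum and 236 CPM in the ileum (log2 3.45 ± 0.37, adjusted p = 8.85e-06). The exporter subunits Slc51a (log2 2.29 ± 0.33, adjusted p = 1.29e-04) and Slc51b (log2 1.72 ± 0.26, adjusted p = 1.48e-04) rose as well. Nr0b2, encoding the repressor SHP, went the other way, with 0.25 to 4.82 CPM (median 1.11) in the duodenum and 0 to 0.716 CPM (median 0.116) in the ileum (log2 -3.02 ± 0.57, adjusted p = 3.55e-04). Mouse 12 held the highest ileal values of Fabp6 and Slc10a2, and without it Fabp6 stood at 6.14 (adjusted p = 1.88e-07) and Slc10a2 at 5.18 (1.58e-07). In the index settings the list had 0 higher in the ileum and 0 in the duodenum within index D501 (mouse 27's duodenum library left out), and 2 and 1 with the index as a term. The 2 ileal calls that were left were Fabp6 and Slc10a2, at 5.06 (adjusted p = 0.0134) and 5.45 (0.0134).

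Iron and calcium genes were higher in the duodenum in 5 of 11 tested cases and in the ileum in 2 (median -0.36), against 16.8% and 16.5% of all genes. Slc40a1, the iron exporter ferroportin, ran from 18.9 to 692 CPM (median 30.2) in the duodenum and 4.45 to 15.4 CPM (median 7.49) in the ileum without overlap (log2 -2.24 ± 0.27, adjusted p = 1.97e-05). S100g, the calcium-binding protein calbindin-D9k, ran from 12.6 to 1203 CPM (median 63.4) in the duodenum and 0.328 to 13.1 CPM (median 3.33) in the ileum (log2 -4.24 ± 0.40, adjusted p = 2.67e-06). The ferritin genes Fth1 (log2 -0.93 ± 0.15, adjusted p = 1.19e-04) and Ftl1 (log2 -0.51 ± 0.10, adjusted p = 8.27e-04) moved the same way. Hamp, the gene of hepcidin, which blocks ferroportin, ran from 0 to 1.42 CPM (median 0.15) in the duodenum and 0.494 to 7.404 CPM (median 2.21) in the ileum (log2 3.18 ± 0.49, adjusted p = 4.23e-05). Tfrc, the transferrin receptor, was slightly higher in the ileum (log2 0.56 ± 0.14, adjusted p = 0.00452). The highest values of Slc40a1 and S100g were those of mouse 27, without which the log2 fold changes were -2.03 and -3.97. The list had 0 higher in the ileum and 1 in the duodenum within index D501 (mouse 27's duodenum library left out), and 0 and 7 with the index as a term and that library kept in.

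In the list of fat and sterol absorption 4 of 19 tested were higher in the duodenum, 2 in the ileum and 13 did not pass (median -0.13), so 31.6% passed, against 33.3% of all genes. Without mouse 27 the counts were 4 and 6. There were 0 higher in the ileum and 2 in the duodenum within index D501 (mouse 27's duodenum library left out), and 0 and 6 with the index as a term and that library kept in. Cd36, a fatty acid transporter, ran from 13.7 to 64.2 CPM (median 24.8) in the duodenum and 2.53 to 14.8 CPM (median 7.501) in the ileum (log2 -1.97 ± 0.19, adjusted p = 2.80e-07). Fabp1, the liver-type fatty acid-binding protein, ran from 166 to 1351 CPM (median 296) in the duodenum and 16.3 to 183 CPM (median 58.1) in the ileum (log2 -2.23 ± 0.41, adjusted p = 8.23e-04). Both were lower in the ileum in all 15 mice. Fabp2, its intestinal counterpart, ran from 104 to 2786 CPM (median 253) in the duodenum and 111 to 1834 CPM (median 744) in the ileum (log2 1.54 ± 0.37, adjusted p = 0.0058). Npc1l1, the sterol importer, ran from 126 to 873 CPM (median 182) in the duodenum and 179 to 545 CPM (median 356) in the ileum (log2 0.69 ± 0.21, adjusted p = 0.0199). Each was higher in the ileum in 13 of 15 mice, and Npc1l1 missed the threshold without mouse 12 (adjusted p = 0.0521). Mouse 27 held the top duodenal value of all 4 genes, and without it Cd36 stood at -1.87, Fabp1 at -1.99, Fabp2 at 1.75 and Npc1l1 at 0.83. With the index as a term, in a fit that kept mouse 27's duodenum library, the values of Fabp2 (-0.69) and Npc1l1 (-0.77) changed sign without passing. Amino acid and peptide transporters showed 6 of 19 higher in the ileum, against 16.5% of all genes, and 3 in the duodenum (median 0.13), or 9 and 3 without mouse 27. There were 1 higher in the ileum and 0 in the duodenum within index D501 (mouse 27's duodenum library left out). With the index as a term, and that library kept in, the balance turned round to 2 and 6. The largest ileal changes were those of Slc6a14 (a mean of 0.347 CPM in the duodenum and 2.15 CPM in the ileum, log2 3.25 ± 0.48, adjusted p = 2.54e-05) and the glutamate transporter gene Slc1a1, which ran from 9.08 to 29.7 CPM (median 16.9) in the duodenum and 30.5 to 129 CPM (median 53.00) in the ileum without overlap (log2 1.64 ± 0.17, adjusted p = 1.06e-06). Slc38a3, a glutamine transporter gene, was higher in the duodenum (log2 -2.34 ± 0.38, adjusted p = 6.98e-05).

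Enzymes of xenobiotic and steroid metabolism moved to one side: 17 of 32 were higher in the duodenum, against 16.8% of all genes, and none in the ileum (median -1.13). Adh6a, an alcohol dehydrogenase gene, ran from 50.3 to 661 CPM (median 82.9) in the duodenum and 3.56 to 26.4 CPM (median 13.6) in the ileum without overlap (log2 -2.96 ± 0.33, adjusted p = 1.29e-05). Gsta1, a glutathione transferase gene, ran from 0.202 to 15.8 CPM (median 1.48) in the duodenum and 0 to 1.23 CPM (median 0.181) in the ileum (log2 -2.61 ± 0.51, adjusted p = 5.40e-04). Cyp3a11, a major drug-metabolizing cytochrome, ran from 96.9 to 1578 CPM (median 252) in the duodenum and 14.2 to 175 CPM (median 54.5) in the ileum (log2 -2.48 ± 0.39, adjusted p = 2.72e-04). Without mouse 27, which was highest in the duodenum for all 3, these changes were -2.75, -2.32 and -2.23. The index settings gave 0 higher in the ileum and 4 in the duodenum within index D501 (mouse 27's duodenum library left out). The counts were 0 and 17 with the index as a term, a fit that kept that library. With the library kept in, the D501 count was 13 in the duodenum. Many genes of the absorption and metabolism lists are also transcribed in enterocytes, whose markers ranged from 6405 to 54030 CPM in the duodenum and 5358 to 18694 CPM in the ileum, with 3 of 12 higher in each region; the part of those cells in the differences was not tested.

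MHC class II and antimicrobial genes were higher in the ileum in 17 of 21 tested cases, against 16.5% of all genes, and 1, Reg1, in the duodenum (median 2.06). Saa1, a serum amyloid gene, ran from 0 to 1.03 CPM (median 0) in the duodenum and 0.483 to 58.9 CPM (median 3.05) in the ileum (log2 4.33 ± 0.48, adjusted p = 1.29e-06). Nos2, the inducible nitric oxide synthase, ran from 0 to 29.2 CPM (median 4.09) in the duodenum and 13.5 to 443 CPM (median 64.2) in the ileum (log2 3.93 ± 0.43, adjusted p = 1.02e-05). Cd74, the invariant chain of MHC class II, ran from 18.5 to 1835 CPM (median 125) in the duodenum and 164 to 1319.8 CPM (median 834) in the ileum (log2 2.06 ± 0.34, adjusted p = 4.02e-04), the top duodenal value being that of mouse 27 (2.23 without it). Lyz1, the Paneth cell lysozyme, ran from 32.8 to 1501 CPM (median 119) in the duodenum and 396 to 4152 CPM (median 972) in the ileum (log2 3.07 ± 0.42, adjusted p = 8.55e-05). Reg1, a regenerating-family lectin gene, ran from 28.2 to 993 CPM (median 93.4) in the duodenum and 0.494 to 3.796 CPM (median 1.29) in the ileum, without overlap and far higher in the duodenum (log2 -6.05 ± 0.27, adjusted p = 5.60e-10). Most of the ileal calls were lost in the index settings, with 3 higher in the ileum and 1 in the duodenum within index D501 (mouse 27's duodenum library left out), and 1 and 2 with the index as a term. Over all genes the ileal calls in those settings fell as well, from 2418 to 196 and 371. Cd74 stood at 1.44 (adjusted p = 0.359) within D501 and at 0.20 (0.924) with the index as a term and mouse 27's duodenum library kept in. All 10 Paneth markers, of which this list also holds 3 (Lyz1, Ang4 and Pla2g2a), were higher in the ileum, with sums of 123 to 3861 CPM and 1186 to 12754 CPM, and their part in this list's count was not tested.

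**Figure D5:**
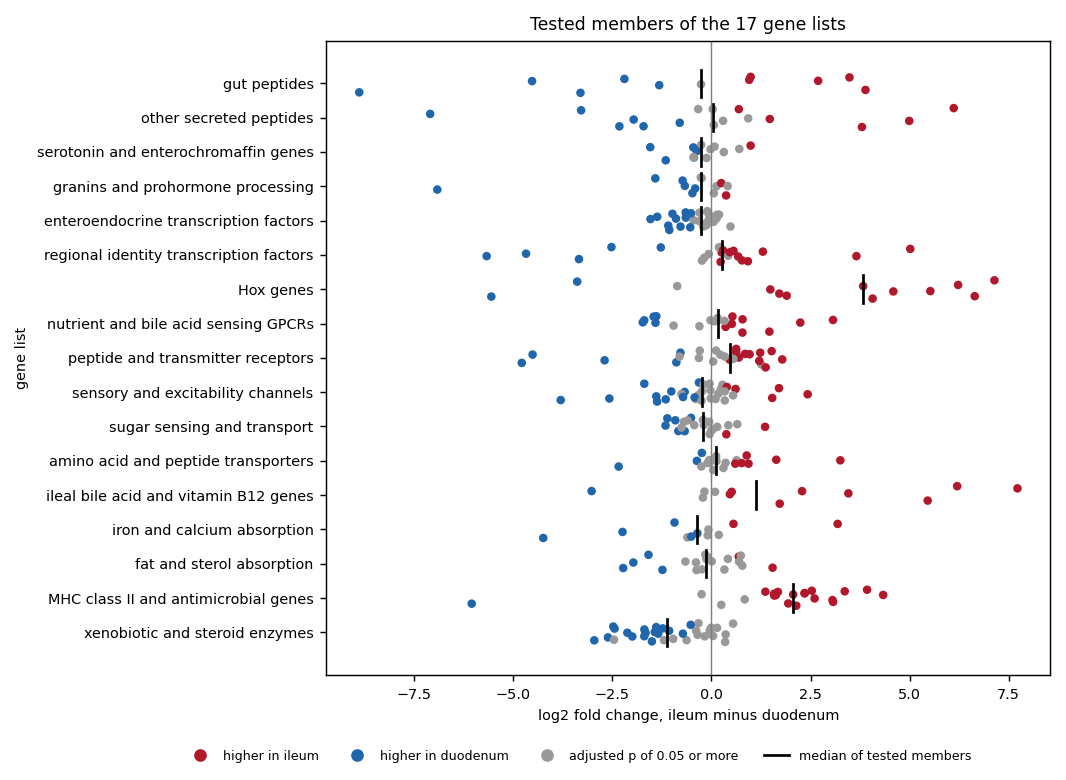
Each point is a tested gene of 1 of 17 lists, at its log2 fold change (ileum minus duodenum) and coloured by whether it passed at an adjusted p of 0.05 and in which direction; black lines mark the medians. MHC class II and antimicrobial genes (17 of 21) and Hox genes (10 of 13) lie on the ileal side, and xenobiotic enzymes (17 of 32) and EEC transcription factors (11 of 28) on the duodenal side.

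The largest differences among genes above 10 CPM that moved the same way in all 15 mice included digestive and gastric genes on the duodenal side. Akp3, an alkaline phosphatase of the duodenum, ran from 124 to 5227 CPM (median 394) in the duodenum and 0.644 to 9.05 CPM (median 1.64) in the ileum (log2 -7.85 ± 0.44, adjusted p = 1.70e-08). Tmprss15, the enteropeptidase that activates trypsinogen, ran from 9.41 to 432 CPM (median 31.3) in the duodenum and 0 to 0.737 CPM (median 0.0805) in the ileum (log2 -7.80 ± 0.32, adjusted p = 1.48e-11). The aspartic proteinase genes Ctse (log2 -6.75 ± 0.25, adjusted p = 6.03e-13) and Pgc (log2 -6.66 ± 0.28, adjusted p = 3.71e-10), better known from the stomach, were at a mean of 38.7 CPM in the duodenum and 0.518 CPM in the ileum and a mean of 167 CPM in the duodenum and 1.74 CPM in the ileum respectively. Sult6b2 (log2 -7.69 ± 0.39, adjusted p = 1.36e-09), Pzp (log2 -7.02 ± 0.33, adjusted p = 1.72e-09) and Shisa9 (log2 -6.07 ± 0.47, adjusted p = 3.84e-07) completed this group with Gast, Pcsk2 and Reg1. Mouse 27 was highest in the duodenum for Akp3, Tmprss15, Sult6b2 and Reg1, and without it the changes were -7.54, -7.50, -7.02 and -5.74. All but Gast, whose ranges met at a few low libraries, were free of overlap.

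The matching ileal group held the Paneth defensins Defa22, with 0 to 21.03 CPM (median 0.365) in the duodenum and 36.5 to 599 CPM (median 99.9) in the ileum (log2 7.42 ± 0.56, adjusted p = 3.10e-07), and Defa21 (log2 7.26 ± 0.61, adjusted p = 9.42e-07), whose reads may be split with near-identical copies. Slc5a8, a sodium-coupled monocarboxylate transporter gene, ran from 0.101 to 2.25 CPM (median 0.708) in the duodenum and 12.9 to 163 CPM (median 62.7) in the ileum (log2 6.25 ± 0.32, adjusted p = 2.34e-09), Tmigd1 was at a mean of 1.45 CPM in the duodenum and 89.3 CPM in the ileum (log2 5.83 ± 0.49, adjusted p = 8.53e-07), and Slc34a2, a phosphate transporter gene, at a mean of 5.49 CPM in the duodenum and 225 CPM in the ileum (log2 5.74 ± 0.55, adjusted p = 3.28e-06). Hoxb7, Hoxb8, Hoxb9, Slc10a2 and Fabp6 made up the rest. None of these overlapped between regions. The most abundant genes to differ by at least 1 log2 unit were, in the ileum, Nts, Lyz1, Anpep, an aminopeptidase of the brush border (a mean of 1157 CPM in the duodenum and 2612 CPM in the ileum, log2 1.39 ± 0.26, adjusted p = 6.76e-04), Reg3b, a lectin gene (a mean of 609 CPM in the duodenum and 1519.6 CPM in the ileum, log2 1.58 ± 0.30, adjusted p = 0.00111) and Mgam, the brush-border maltase-glucoamylase (a mean of 1148 CPM in the duodenum and 1922 CPM in the ileum, log2 1.35 ± 0.33, adjusted p = 0.00637). The duodenal means of Lyz1, Anpep and Mgam include a library of mouse 27 above all others, and without it the changes were 3.24, 1.54 and 1.55. In the duodenum they were Gip, Sst, Cck, Reg4, a marker of enterochromaffin cells (a mean of 7736 CPM in the duodenum and 1736 CPM in the ileum, log2 -2.22 ± 0.26, adjusted p = 5.55e-06), and Afp, the alpha-fetoprotein gene, which ran from 783 to 4642 CPM (median 2536) in the duodenum and 92.1 to 734 CPM (median 280.4) in the ileum without overlap (log2 -3.23 ± 0.31, adjusted p = 2.18e-06).

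The regional difference was also estimated within each surgery group. The number of genes passing was 1923 (13.1%) in S_al (6.04% of the genes tested higher in the ileum and 7.1% in the duodenum), 1295 (8.85%) in S_wm (4.24% and 4.61%) and 2166 (14.8%) in VSG (7.07% and 7.73%), groups of 4, 5 and 6 mice. The same 801 genes passed in all 3 groups, all with 1 sign, 358 higher in the ileum and 443 in the duodenum. Of the 2418 genes higher in the ileum over all mice 2373 had that sign in each group, and of the 2454 higher in the duodenum 2415 did. The value over all mice is the mean of the 3 group estimates, so this agreement is largely built in. Between groups, which share no mouse, 98.2% to 99.5% of the genes called in one group had the same sign in another. When the 3 estimates were tested against each other, 0 of 14635 genes passed by edgeR, and 378 (2.58%) had an unadjusted p under 0.05. That share is below the 0.05 that a test gives with no difference. In groups of 4, 5 and 6 mice differences may be missed, so the 0 does not show their absence. DESeq2 and limma called 0, although edgeR without a filter on low counts called 108. These 108 were all among the 14635 genes of the filtered test. Their median total was 11064 counts over the paired libraries, so they were not genes of low counts. The counts within a group rested on single libraries: without mouse 12, 13 or 19 the S_al count was 824, 1111 or 1280, and without mouse 27 it was 2894. The S_wm count was 814 without mouse 29, 825 without mouse 21 and 2519 without mouse 27, and the VSG count was 1310 without mouse 11 and 3274 without mouse 27. In fits that leave out mouse 27 the S_al and VSG counts moved although that mouse was in neither group, since all groups share the estimate of spread.

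For the peptide genes the 3 estimates lay side by side as follows. Gip stood at -2.78 ± 0.34 in S_al, -1.82 ± 0.30 in S_wm and -1.99 ± 0.27 in VSG (log2 ± SE), and Nts at 3.17 ± 0.25, 3.52 ± 0.23 and 3.76 ± 0.21. Cck was at -3.89 ± 0.39, -3.17 ± 0.35 and -2.86 ± 0.30. The regional order of these 3 was thus the same in each group. Pyy was at 2.26 ± 0.53, 2.94 ± 0.53 and 2.88 ± 0.45, and Gcg at 0.86 ± 0.54, 1.11 ± 0.52 and 0.90 ± 0.45. For Sct the estimates were -0.89 ± 0.25, 0.29 ± 0.23 and -0.19 ± 0.21, the S_wm value resting in part on mouse 27, whose duodenum library was the lowest for this gene. The unadjusted p of the test between groups was 0.093 for Gip, 0.177 for Nts, 0.936 for Gcg and 0.00956 for Sct, and the adjusted p was 1 for each.

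The 2 libraries of mice with a single region were set beside the paired ones. In the duodenum library of mouse 17, 9 of the 11 peptide genes lay within the range of the 15 paired duodenum libraries; Nts (233 CPM) lay below and Gast (125 CPM) above. In the ileum library of mouse 24, 10 of 11 lay within the range, and Sst (2921 CPM) lay above.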

How the data were processed

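Counts were deposited by the authors as 1 table of whole-number counts per gene, made from single-end 50-base reads of stranded total RNA libraries with STAR (per the labels, GRCm38); the strand setting of the counting is not given in the sources used here, so overlapping and antisense genes are uncertain. Of 53465 genes, 53360 matched GENCODE M21 names and exon lengths. Genes were filtered with filterByExpr, leaving 14635, and TMM-scaled. edgeR 4.0.16 (R 4.3.3) quasi-likelihood models held mouse as a block and an ileum effect per surgery group; the comparison is the mean of the 3 effects, and fold changes are log2, ileum minus duodenum, with SE. P-values were Benjamini-Hochberg adjusted over all tested genes (threshold 0.05). Pairing comes from the mouse number in the labels; same-mouse deviations had a median correlation of 0.167 over 15 pairs (-0.070 to 0.515) against -0.018 for other mice. The lowest chi-square per gene over 70 pairs of same-group libraries was 10.4, so none were duplicates. On simulated data 35.8%, 73.1% and 95.5% of changes of 0.5, 1 and 2 log2 units were recovered among 14635 genes. The simulation changed far fewer genes than were called here, alike in each surgery group, and held no outlying library. These shares therefore need not hold for the data.

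The genes, lists and tests were chosen with earlier results of these data known. Named by rule were the 11 gut peptides with Neurod1, Chga, Chgb and Scg2, up to 2 members per list and direction of largest change (mean of at least 1 CPM in the higher region), the 10 largest changes per direction (at least 10 CPM, same way in 15 mice) and the 5 most abundant genes per direction changed by 1 log2 unit. Some genes are not reported here. Every other gene named was chosen after its values were seen. Alternatives were DESeq2 1.42.0, limma 3.58.1 voom, size factors, other filters, no block, index D501 only and leaving out each mouse; added after seeing the data were D501 without the duodenum library of mouse 27 and the index as a covariate. The authors' methods name GRCm38.91 for annotation. Intervals for counts cover counting error only.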

Additional observations from a re-analysis of the deposited data

Results flagged for a closer look

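In groups of 4 to 6 libraries, 130 combinations of a measure and a group were searched for a single library far from the others by Dixon's ratio, and 21 (16.2%) held one, where chance alone gives about 1 in 20. Of these, 7 were libraries of mouse 27. Its duodenum library had enterocyte markers at 54030 CPM (next 8899), Paneth markers at 3861 (next 809), tuft markers at 85.9 (next 27.1), leukocyte markers at 183 (next 31.2), neuron and glia markers at 62.4 (next 283) and Sct at 375 CPM (next 1433). Its ileum library had Tac1 at 559 CPM (next 335).

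Gast stood out in a library of each duodenum group, at 107 CPM in mouse 13 (next 3.91), 19 CPM in mouse 29 (next 2.66) and 99.2 CPM in mouse 18 (next 27.6), and in the ileum of mouse 16 at 0.655 CPM against 0. Mouse 25 had the highest ileal Sct (2923 CPM, next 1602) and Pyy (1765 CPM, next 867) among VSG mice. Duodenal Gcg reached 1319 CPM in mouse 30 (next 589) and duodenal Insl5 0.298 CPM in mouse 22 (next 0.101).

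Leukocyte markers summed to 44.7 CPM in the duodenum of mouse 28 (next 12.8) and 22.4 CPM in the ileum of mouse 21 (next 7.37). Acinar markers reached 1.33 CPM in the duodenum of mouse 31 (next 0.183), whose ileum library had neuron and glia markers at 255.7 CPM (next 184). Total counts were 17182463 in the duodenum of mouse 13 (next 8033375) and 7421731 in the ileum of mouse 31 (next 6655692).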

How the results depend on the processing

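For ileum versus duodenum, the total of 4872 genes was 5463 with DESeq2, 5472 with limma voom, 4887 with size factors, 4668 without a filter and 4628 with a stricter one. Without the block on mouse, which pairs the libraries, it was 4942, and leaving the block out moved no count per surgery group by over 1.5 times. Index D501 alone gave 478, or 526 without the duodenum library of mouse 27, from fewer libraries, and the index as a covariate gave 931. Leaving out 1 mouse gave 4213 to 6092 over all mice, 824 to 2894 in S_al, 814 to 2519 in S_wm and 1310 to 3274 in VSG. Genes called for a regional difference that varied with surgery numbered 0, or 108 without a filter, all of which were also in the filtered test. Of 89 genes named by rule, 78 kept direction and side of the threshold outside the index settings and 20 in every setting. Signs turned within D501 for Sct (0.28), Chgb (0.11) and Npc1l1 (-0.18), on leaving out single mice for Chga (0.13 with all mice, -0.0051 to 0.19, the lowest without mouse 27), in D501 without mouse 27's duodenum for Chga (-0.19), Pcsk1n (-0.0225) and Hk1 (-0.16), and with the index as a covariate for Sct (0.35), Neurod1 (0.0015), Chgb (0.80), Cpd (-0.0536), Mgam (-0.65), Tfrc (-0.28), Fabp2 (-0.69), Npc1l1 (-0.77), Anpep (-0.44) and Reg3b (-0.0053). The cause was not tested. The region and the index cannot be told apart outside D501, and the D501 settings hold 4 or 3 duodenum libraries. In the setting with 3, the region effect rests on S_al libraries alone. The fit with the index as a covariate kept the duodenum library of mouse 27. It told region from index only through mice 13, 27 and 32, none of them VSG. At this depth genes of a few counts, such as Penk, Hoxa9 and Insl5, have wide errors.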

Other observations

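Markers of cell types other than EECs also differed between the regions. Among 7 goblet markers, Muc2, the main gel-forming mucin, had a mean of 33.6 CPM in the duodenum and 223 CPM in the ileum (log2 2.83 ± 0.35, adjusted p = 3.34e-05), and Clca1 (log2 1.81 ± 0.29, adjusted p = 3.11e-04) and Zg16 (log2 1.60 ± 0.26, adjusted p = 3.33e-04) were higher in the ileum too, whereas the secretory chaperone gene Agr2 (log2 -0.65 ± 0.11, adjusted p = 8.77e-05) and the trefoil gene Tff3 (log2 -0.48 ± 0.14, adjusted p = 0.0152) were lower. Of the 8 crypt markers 7 were higher in the ileum, against 16.5% of all genes. They ran from the stem cell receptor Lgr5, with a mean of 13.3 CPM in the duodenum and 43.1 CPM in the ileum (log2 1.63 ± 0.18, adjusted p = 1.69e-06), to the proliferation gene Mki67 (log2 0.55 ± 0.13, adjusted p = 0.00424). The summed goblet markers were higher in the ileum in 7 of 15 mice and the summed crypt markers in 15. Neuron and glia markers ran the other way, with Snap25, a synaptic vesicle fusion gene also transcribed in EECs, at a mean of 119 CPM in the duodenum and 66.1 CPM in the ileum (log2 -0.84 ± 0.18, adjusted p = 0.00209).

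Lepr, the leptin receptor gene, did not pass the filter on low counts, but the ileum library of mouse 19 had 60.4 CPM, where no other library of the paired mice exceeded 0.311 CPM.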
